A study of Mus musculus with 15 samples.

Results

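The regions described here were 7613 transcription start site (TSS) models that carry a transcript identifier in the style of the UCSC Genome Browser, such as uc009gtx.2, in place of an Ensembl one. They were all rows of the deposited TSS model counts whose identifier began neither with the prefix of Ensembl mouse transcripts nor with the marks of a summary line, and they made up 7613 of 24735 models. The other 17122 models had Ensembl identifiers. The choice used names only and no measured value. RNA-seq of poly(A) RNA from mouse cerebellum had been counted over these models in 15 libraries, 3 in each of 5 groups. Per the labels, 4 groups were granule neuron precursors purified on Percoll. The E15.5 precursors carried the genotype label Math1-GFP, and the precursors of P1, P7 and P14 were wild type, so the embryonic age and that allele cannot be told apart. The remaining group, MB, was medulloblastoma cells, labelled Ptch1 heterozygous, with no age given. The labels do not say how many mice gave a library or whether the libraries of a group came from separate mice, so the p-values measure the spread between these libraries, which may be technical.

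A transcription start site is the place where RNA polymerase begins a transcript, and a gene can have several. How the authors built a model around a start is not given in the sources used here. Granule neuron precursors divide under Sonic hedgehog signalling, which acts through the receptor Ptch1 and the membrane protein Smo, and they then leave the cell cycle and form synapses as granule neurons. Loss of Ptch1 function lets this signalling continue, and medulloblastoma can arise from these cells. Polycomb proteins, among them the histone methyltransferase Ezh2 named in the study's title, keep developmental genes silent by marking their chromatin.

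The UCSC identifiers do not name a gene, and none of the sources used here pairs them with one. The deposited transcript counts, which give positions for 28246 transcripts, listed 0 of the 7613 models, so the models have no coordinates here. Their counts were therefore set against the authors' counts for 21889 Ensembl genes. A model was taken as matched when it had the same count as exactly 1 gene in each of the 15 libraries, with a total of at least 15 reads (1293 models), or when it had at least 1000 reads and lay within 2% of exactly 1 gene in each library (1178 models). Together 2471 models were matched, 2458 of them to a gene with a symbol. On Ensembl models, whose gene is known from their annotation, the same rules named the annotated gene in 8260 of 8356 identical matches (98.9%) and in 1235 of 1243 near matches (99.4%). A gene symbol below means the model whose counts matched that gene, not an annotation of the identifier.

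Among genes, 7015 of the 21889 had no Ensembl model, and 2462 of these (35.1%) had a matched UCSC-named model. Of the identical matches, 1286 of 1293 were to a gene without an Ensembl model of its own, and of the near matches 1176 of 1178 were. No gene matched more than 1 model. The matched models held 62.7% of all reads counted in UCSC-named models. Most matched models thus carried the reads of a gene that the Ensembl models left out.

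The RefSeq start regions of 4 matched genes are shown because these genes had some of the clearest patterns across age or tumour. Each is the 250 bases before the annotated start in build GRCm38.p6, written 5′ to 3′ along the gene's strand, and the capitals mark each CANNTG, the core letters of an E-box, which basic helix-loop-helix factors such as Atoh1 and Olig3 can bind. The deposited tables were made on build mm9, per the submitters' processing notes, and the starts of the UCSC-named models themselves have no position here, so the RefSeq start may not be theirs.
Slc17a7, chr7:45163671-45163920, plus strand: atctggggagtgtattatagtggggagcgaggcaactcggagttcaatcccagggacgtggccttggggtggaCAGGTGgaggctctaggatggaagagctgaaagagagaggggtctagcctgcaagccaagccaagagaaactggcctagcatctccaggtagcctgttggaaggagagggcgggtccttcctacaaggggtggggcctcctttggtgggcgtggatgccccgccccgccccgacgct
Igf2bp3, chr6:49214955-49215204, minus strand: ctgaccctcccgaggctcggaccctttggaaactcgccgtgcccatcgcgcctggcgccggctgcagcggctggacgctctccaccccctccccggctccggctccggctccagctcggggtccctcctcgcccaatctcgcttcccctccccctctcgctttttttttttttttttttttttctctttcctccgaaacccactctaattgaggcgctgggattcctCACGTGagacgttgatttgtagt
Olig3, chr10:19356289-19356538, plus strand: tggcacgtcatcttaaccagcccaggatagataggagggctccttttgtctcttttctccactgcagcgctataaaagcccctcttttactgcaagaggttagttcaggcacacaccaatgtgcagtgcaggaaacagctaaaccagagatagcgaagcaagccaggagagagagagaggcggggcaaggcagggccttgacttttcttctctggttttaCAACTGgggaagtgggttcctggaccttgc
Atoh1, chr6:64728875-64729124, plus strand: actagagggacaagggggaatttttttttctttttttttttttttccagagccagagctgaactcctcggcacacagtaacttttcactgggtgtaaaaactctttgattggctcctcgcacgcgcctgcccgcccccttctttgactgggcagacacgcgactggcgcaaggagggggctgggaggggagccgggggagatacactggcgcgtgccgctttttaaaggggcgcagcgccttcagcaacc

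The Slc17a7, Igf2bp3 and Olig3 regions held 1 CANNTG each and the Atoh1 region held 0. Over the 32536 RefSeq start regions in the table, 66.2% held a CANNTG, and of the 2405 start regions found for matched models 60.1% did. The motif reads the same on both strands, and a match is only a match of letters. RefSeq start regions were found for 1909 of the 2458 symbols. The start regions of matched models were richer in CpG than start regions at large: 60.4% had at least 0.6 of the CpG count that their C and G content predicts, against 34.2% of all in the table. A match needed at least 15 reads, while the regions at large were not chosen by reads. The part of that choice was not tested, and start regions of Ensembl models were not set beside these. Among the 4 shown, Igf2bp3 (1.00) and Atoh1 (0.728) lay above that line, and Slc17a7 (0.408) and Olig3 (0.242) lay below it. The Olig3 region also held the TATA-box letters TATAAA, which were in 12.3% of all start regions, counting both strands.

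**Figure D1:**
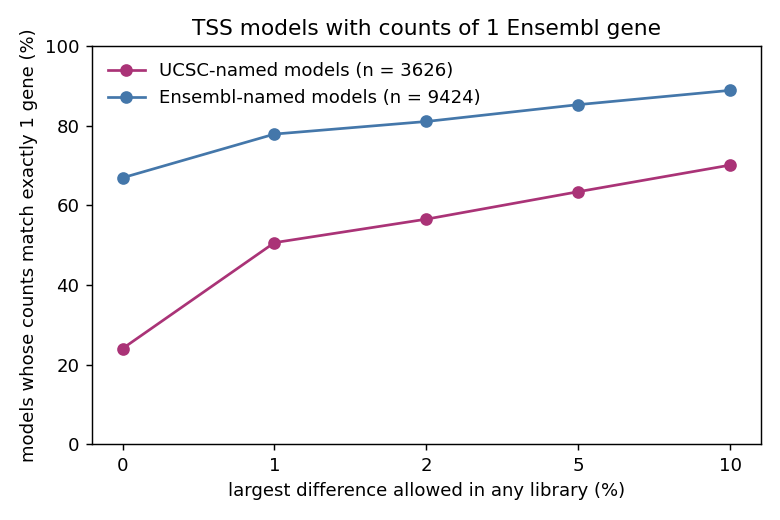
Share of models with at least 1000 reads whose counts match exactly 1 Ensembl gene (y axis, percent), against the largest difference allowed in any library (x axis, percent). Among 3626 UCSC-named models the share went from 24.0% with no difference allowed to 70.1% at 10%, and among 9424 Ensembl-named models from 66.9% to 88.9%.

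The match depended on the difference allowed, as the plot of matched shares against tolerance shows. With no difference allowed, 24.0% of the 3626 UCSC-named models with at least 1000 reads matched 1 gene, and 66.9% of the 9424 such Ensembl models did. At 1% the share of UCSC-named models was 50.6%, at 2% it was 56.5% and at 10% it was 70.1%. Of the 2541 models within 10% of a gene, 856 had the gene's reads exactly, 195 had more reads than the gene in all 15 libraries (median 1.61%) and 235 had fewer in all 15 (median difference -1.73%).

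Libraries held 13174305 (E15.5 replicate 2) to 46262998 (E15.5 replicate 3) reads counted in models, and UCSC-named models took 26.9% to 29.7% of them. By principal components of the UCSC-named models, P1 replicate 3 lay nearer to P14 (36.0 on the first axis, against 8.20 and 26.7 for the other P1 libraries, 7.75 to 16.2 for P7 and 45.1 to 49.0 for P14). Markers of other cell types, as summed CPM (reads scaled to the size of each library) of 6 genes per type in the gene table, differed between groups. Oligodendrocyte markers stood at 33.3 to 43.6 at E15.5, at 204, 613 and 3541 in P1 replicates 1 to 3, at 677 to 1545 at P7, at 5655 to 6122 at P14 and at 100 to 227 in MB. Markers of GABAergic interneurons stood at 475 to 610 at E15.5 and at 1.64 to 3.09 in MB, and endothelial markers at 11.2 to 30.5 at E15.5 against 376 to 567 at P1. Of the 6 granule precursor markers none was at 0 in any library. Their sum was 2516 to 3716 at E15.5, 2950 to 3863 at P1 and 4779 to 5778 at P7. It was 4275 to 4645 at P14 and 3268 to 4072 in MB. Neurod1, among the 6, is also on the granule neuron maturation list used below, so the sum does not measure precursors alone. Atoh1, also among the 6, stood lower at P14 than at E15.5, as given below. In bulk libraries fewer cells of a type and less RNA per cell cannot be told apart.

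A small set of models divided the libraries across the groups. In 15 UCSC-named models each of 6 libraries (E15.5 replicates 1 and 3, all of P7 and MB replicate 1) held at least 10 reads, while the other 9 libraries held 0. At this cutoff no Ensembl model had this pattern, and no model of either kind had the reverse. At a cutoff of 1 read, 17 UCSC-named models and no Ensembl model had it, and 1 UCSC-named model had the reverse. The model uc009shi.2, for example, held 1003 and 1683 reads in E15.5 replicates 1 and 3, 1521, 1181 and 1323 at P7 and 608 in MB replicate 1, and 0 elsewhere. The 15 models held 0.0844% to 0.139% of the reads of UCSC-named models in those 6 libraries, and none of them matched a gene. An Ensembl model showed a like division the other way round, the model for Tsnax, which encodes a partner of the RNA-binding protein translin. Its count was set against that of the transcript with the same identifier in the deposited transcript counts. It was at most 0.273% of that count in the 6 libraries and at least 92.4% in the other 9. These 6 and 9 libraries are called library sets below. The former held every P7 library and the latter every library of P1 and of P14, so library set and age cannot be told apart in P7 against P1 and in P14 against P7.

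**Figure D2:**
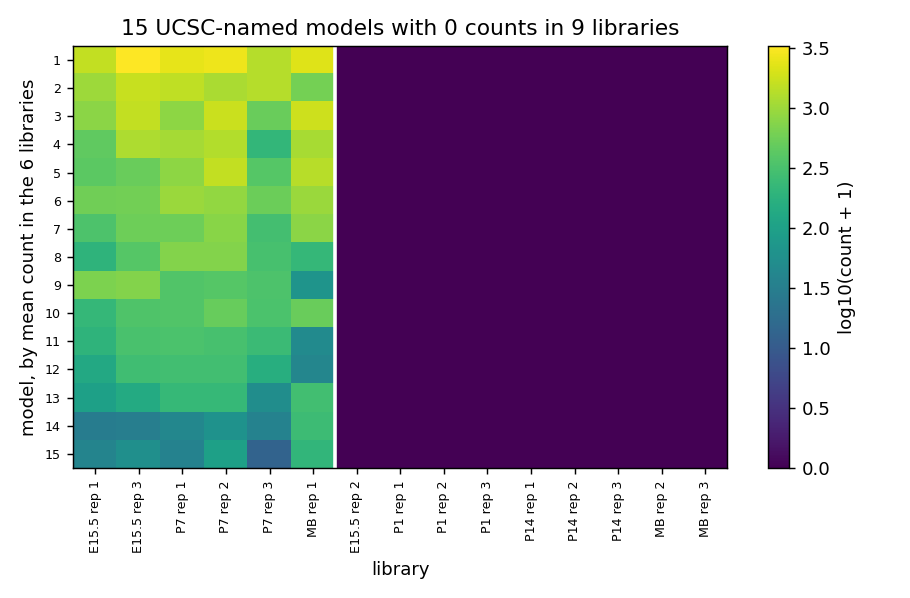
Reads in the 15 UCSC-named models (rows, by falling mean) in each of the 15 libraries (columns), with colour for log10 of the count plus 1. The 6 libraries of one library set hold at least 10 reads in every row and the other 9 hold 0, including libraries of the same group such as E15.5 replicate 2.

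Of the 7613 models, 895 (11.8%) had 0 reads in every library, against 2440 of the 17122 Ensembl models (14.3%). The low-count filter left 4888 UCSC-named models (64.2%) and 11490 Ensembl models (67.1%) for testing. The median level of the tested models was 15.1 CPM for UCSC-named and 27.8 CPM for Ensembl models. Matched models had a median of 39.3 CPM and unmatched ones of 4.46 CPM. A near match needed at least 1000 reads, so the match rule itself favoured models with more reads. These are read counts not divided by length, so they do not rank genes by transcript number.

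The 10 models with the highest mean held 8.19% (MB replicate 2) to 21.5% (E15.5 replicate 3) of the reads of UCSC-named models, and 4 of them were matched. The highest, which was unmatched, stood at 14890, 17460 and 21190 CPM at E15.5, at 5308 to 6488 CPM at P1, at 10010, 18560 and 4454 CPM at P7, at 4614 to 5146 CPM at P14 and at 14030, 4912 and 4287 CPM in MB. E15.5 and P1 did not overlap, while the P7 libraries overlapped every other group. The model of Tubb5, a beta-tubulin of dividing and growing cells, stood at 5889, 5377 and 11220 CPM at E15.5 and at 3464, 2870 and 2725 CPM at P1, a fall of 1.31 on the log2 scale (SE 0.267, FDR 0.00117). The model of Scd2, a fatty acid desaturase, stood at 1882, 1134 and 1210 CPM at P7 and at 736, 655 and 608 CPM in MB, and was called lower in MB (log2 -1.08, SE 0.220, FDR 0.00141), but not inside the 6 libraries of one library set, where MB had 1 library and the fitted change was -0.92 (FDR 0.133). The models of Nedd4, a ubiquitin ligase, and Ptprs, a receptor tyrosine phosphatase of axons, were called in none of the 5 comparisons between pairs of groups. The lowest FDR was 0.0567 (Nedd4, P14 against P1). Inside the 9 libraries of 1 library set, a fit chosen after seeing the data, both passed the threshold in P14 against P1 (log2 -0.65 for Nedd4 and 0.57 for Ptprs). Both were called in the F-test over all 5 groups (FDR 0.025 for Nedd4 and 0.0438 for Ptprs).

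Changes were tested over all 16378 models that passed the filter with edgeR's quasi-likelihood F-test, and a model was called at a false discovery rate (FDR, Benjamini-Hochberg) under 0.05. The adjusted p-values below are these FDR values. Over all 5 groups, 3291 of the 4888 UCSC-named models were called (67.3%), where 68.7% of all models tested were called, so the share was near the background. Of these 3291, the highest mean was at E15.5 for 1021, at P1 for 350, at P7 for 171, at P14 for 843 and in MB for 906. The mean was higher at each later age in 297 and lower at each later age in 293. Ensembl models divided almost the same way, with 30.8% highest at E15.5 against 31.0% of the UCSC-named models and 29.8% highest in MB against 27.5%.

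**Figure D3:**
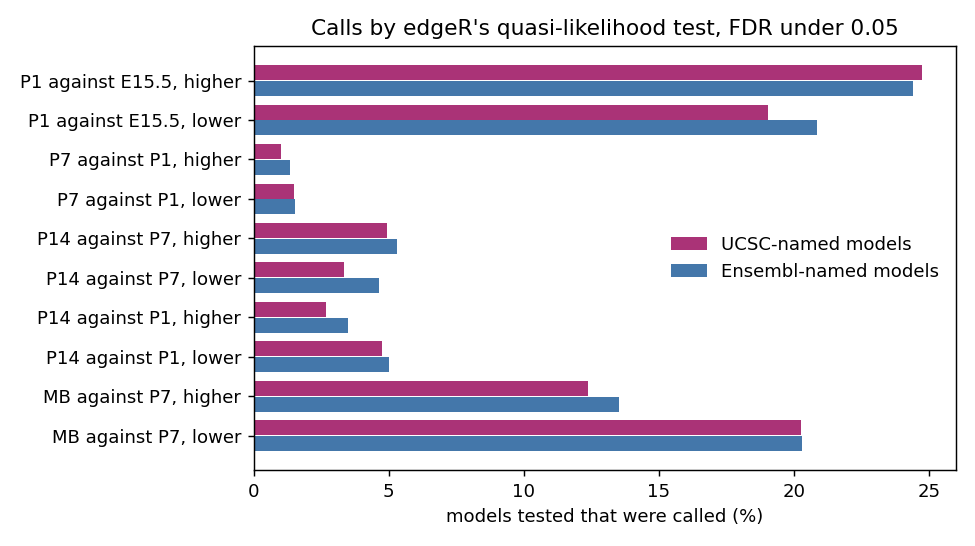
Percent of tested models called higher or lower (FDR under 0.05) in each of 5 comparisons, for UCSC-named and Ensembl-named models. The bars of the 2 kinds lie close together in each comparison, with the most calls in P1 against E15.5 (24.8% higher and 19.0% lower among UCSC-named models) and the fewest in P7 against P1 (1.02% and 1.49%).

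The first comparison asked what changed between the embryonic and the newborn precursors. In P1 against E15.5, 1210 UCSC-named models were called higher and 930 lower, which is 24.8% and 19.0% of those tested, where 24.5% and 20.3% of all models were. At a fitted change of at least 2-fold, 955 were higher and 509 lower (19.5% and 10.4%), where 19.0% and 10.4% of all models were. Gpr37l1, Sox10 and Cldn11 were among the largest rises of matched models, and Slc30a3, Olig3 and Crabp2 among the largest falls.

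Gpr37l1, a receptor of astrocytes, was at 0.0817 to 0.552 CPM in the E15.5 libraries and at 19.3, 80.0 and 421 CPM at P1 (log2 9.17, SE 1.13, FDR 1.95e-05). Sox10, a transcription factor of oligodendrocytes, was at 0.231 to 0.297 CPM and then at 13.3, 16.4 and 36.6 CPM (log2 6.41, SE 0.543, FDR 8.33e-07). Cldn11, a tight junction protein of myelin, was at 1.32 to 1.64 CPM and then at 23.0, 64.7 and 236 CPM (log2 6.18, SE 0.739, FDR 1.51e-05). P1 replicate 3 was the highest P1 library in each of the 3. That all P1 libraries lay above all E15.5 libraries was a condition for being named by size of change. Of the 1210 UCSC-named models called higher, 1159 met it. Summed astroglial markers were at 82.1 to 176 CPM at E15.5 and at 1683 to 3069 CPM at P1, oligodendrocyte markers moved as given above, and the part of such cells in these changes was not tested. Agt, Serpina3n, the smooth muscle actin gene Acta2 and the immediate early gene Fosb were also among the 10 largest rises of matched models, with fitted log2 changes of 6.06 (Acta2) to 7.24 (Serpina3n). So were Hsd11b1 and Mgp, which had 3 reads each in all E15.5 libraries, with ratios of read shares (P1 over E15.5) of 236 (95% counting interval 80.5 to 1148) and 144 (49.0 to 702). Gabrd, the delta subunit of the GABA-A receptor found in mature granule neurons, was at 0.375, 3.02 and 24.9 CPM at P1 and at 0 to 0.0849 CPM at E15.5. With 4 reads in all E15.5 libraries its ratio of read shares was 184 (95% counting interval 71.7 to 679). Its call and that of Hsd11b1 ended inside the 9 libraries of 1 library set, where E15.5 had 1 library.

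Slc30a3, a zinc transporter of synaptic vesicles, fell from 51.5, 33.4 and 55.2 CPM at E15.5 to 5.501, 2.68 and 2.43 CPM at P1 (log2 -3.73, SE 0.404, FDR 6.38e-06). Olig3, a transcription factor of the rhombic lip from which granule precursors come, fell from 25.2 to 25.6 CPM to 1.71, 1.85 and 2.46 CPM (log2 -3.66, SE 0.393, FDR 6.05e-06). Crabp2, which carries retinoic acid, fell from 23.3, 12.7 and 33.9 CPM to 3.25, 5.58 and 1.80 CPM (log2 -2.72, SE 0.424, FDR 0.00014). No P1 library reached the E15.5 range in these 3, as the naming rule required. Chrna4, a subunit of the nicotinic acetylcholine receptor, Fam84a, Fam19a2, the GTPase Rac3, the synaptic scaffold Grip2, the semaphorin co-receptor Plxna4 and Tceal6 completed the 10 largest falls, with log2 changes of -2.89 (Fam19a2) to -2.41 (Tceal6). All 24 models named from this comparison by size of change kept their call when any 1 of the 6 libraries was left out.

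The next comparison asked what changed over the first postnatal week. In P7 against P1, 50 UCSC-named models were called higher and 73 lower, 1.02% and 1.49% of those tested, where 1.26% and 1.53% of all models were. Nt5dc2, a nucleotidase-like protein, stood at 166, 159 and 149 CPM at P1 and at 371, 461 and 453 CPM at P7 (log2 1.44, SE 0.233, FDR 0.0129). Mapk3, the kinase ERK1, stood at 39.7, 40.9 and 51.4 CPM and then at 94.5, 121 and 87.0 CPM (log2 1.20, SE 0.214, FDR 0.0153). Lmx1a, a transcription factor of the roof plate and rhombic lip, stood at 8.002, 13.8 and 6.80 CPM at P1 and at 0.314, 0.942 and 1.73 CPM at P7 (log2 -3.28, SE 0.552, FDR 0.0129). The groups did not overlap in these 3 models, as the naming rule required. Summed choroid plexus markers, of a tissue that comes from the roof plate, were at 407, 10510 and 3988 CPM in P1 replicates 1 to 3, at 52.4, 525 and 2031 CPM in P7 replicates 1 to 3 and at 5191 to 8584 CPM at P14, where Lmx1a stood at 4.01 to 4.79 CPM. Their part in the Lmx1a change was not tested. Olig3 rose (log2 1.56, FDR 0.0388) and so did Snrnp27, a splicing protein, Diras1 and Gdpd5, while Carnmt1, the ribosomal protein gene Rpl39, the matrix protein gene Fbln2, the phosphatase gene Alpl and Fam84a fell. None of the 13 models named here kept its call in every fit that left out 1 library of the pair of groups. Without P1 replicate 2 the counts were 0 and 1, without P7 replicate 2 they were 3 and 6, without P1 replicate 3 they were 126 and 114 and without MB replicate 1 they were 187 and 201. Each of the other P1, P7 and P14 libraries and E15.5 replicates 1 and 3 also moved a count by over 1.5 times when left out, within these bounds.

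The comparison of P14 with P7 covered the second postnatal week and shared the P7 libraries with the former. There 242 UCSC-named models were called higher and 164 lower, 4.95% and 3.36% of those tested, where 5.19% and 4.26% of all models were. Gabrd stood at 4.37, 4.04 and 3.26 CPM at P7 and at 40.6, 48.6 and 48.5 CPM at P14 (log2 3.56, SE 0.902, FDR 0.0269). Vsnl1, a neuronal calcium sensor, stood at 9.92, 13.8 and 13.96 CPM and then at 85.7, 94.7 and 83.9 CPM (log2 2.81, SE 0.628, FDR 0.0169). Cldn11 stood at 82.4, 44.2 and 33.3 CPM and then at 380, 440 and 409 CPM (log2 2.94, SE 0.607, FDR 0.0132). Each P14 library lay above each P7 library in these 3, as the naming rule required. Oligodendrocyte markers were also higher in each P14 library than in each P7 library, by the sums given above. Their part in these changes was not tested. Mgp, the claudin gene Cldn1 and the cadherin gene Cdh15 also rose. Cldn1 stood at 1.96, 37.2 and 12.8 CPM at P1, at 0.286, 1.40 and 3.60 CPM at P7 and at 13.9 to 17.5 CPM at P14. The choroid plexus sums given above had the same order of replicates at P1 and at P7 and were also higher at P14 than at P7, and their part was not tested.

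Spp1, the secreted matrix protein osteopontin, stood at 13.3, 30.3 and 14.3 CPM at P7 and at 1.52, 2.17 and 1.76 CPM at P14 (log2 -3.40, SE 0.353, FDR 0.00135). Islr2, a membrane protein of growing axons, stood at 695, 538 and 844 CPM and then at 219, 171 and 231 CPM (log2 -1.74, SE 0.316, FDR 0.00964). Ngfr, the p75 neurotrophin receptor, fell by 1.55 on the log2 scale and Actg1, a cytoplasmic actin, fell by 1.45. Slc30a3 fell by 1.56. The largest falls by fitted change belonged to 2 of the 15 models that followed the library sets. One was uc009shi.2, with 0 reads at P14 against 4025 at P7, or at least 1291-fold lower with the P14 group set at the floor of 3 reads. Of the 15 such models, 13 were called in P1 against E15.5 and 5 in P14 against P7, and since they follow the library sets they say nothing of age. The rise of the unmatched model uc008clx.1 was among the largest here, from 19.3, 11.5 and 9.31 CPM at P7 to 154, 191 and 171 CPM at P14 (log2 3.68, SE 0.806, FDR 0.0160). Of the 15 models named here, 1 (Spp1) kept its call in every fit that left out 1 library of the pair of groups. Without P14 replicate 2 the counts were 0 higher and 1 lower, without P7 replicate 2 they were 4 and 11 and without MB replicate 1 they were 451 and 361. Each of the other P7 and P14 libraries and E15.5 replicate 3 also moved a count by over 1.5 times when left out, within these bounds.

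**Figure D4:**
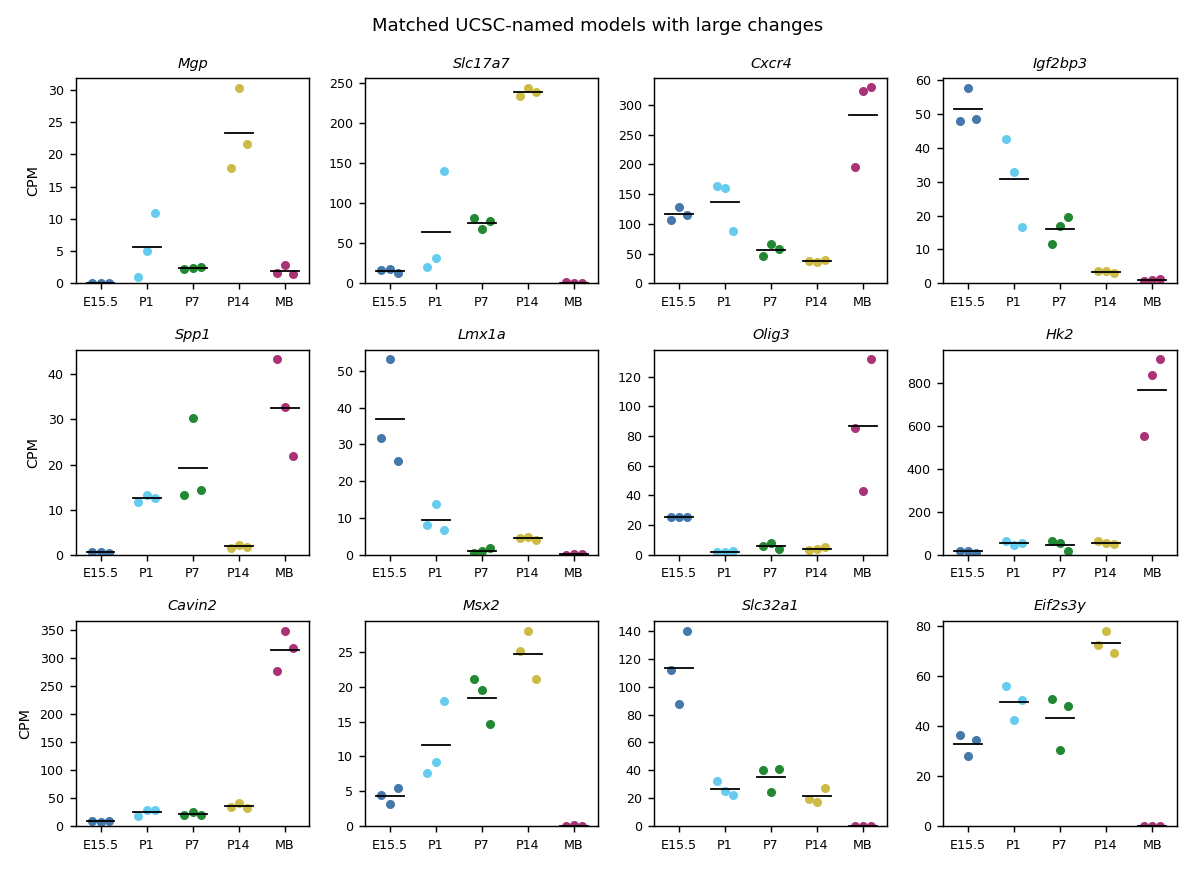
CPM of 12 matched models in each library (points, replicates 1 to 3 from left to right) with group means (lines), on linear axes that start at 0. Slc17a7 is near 239 CPM in all P14 libraries and under 1.5 CPM in all MB libraries, while Hk2 and Cavin2 are highest in all MB libraries.

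Differentiation after birth is the study's stated question, and P14 against P1 spans it inside 1 library set. In that comparison 130 UCSC-named models were called higher and 232 lower, 2.66% and 4.75% of those tested, where 3.25% and 4.93% of all models were. Slc17a7 and Snap25 were among the largest rises of matched models, and Igf2bp3, Spp1 and Cxcr4 among the largest falls. Slc17a7 (uc009gtx.2), the vesicular glutamate transporter VGLUT1 of granule neuron terminals, stood at 20.3, 31.4 and 141 CPM at P1 and at 234, 244 and 239 CPM at P14 (log2 1.90, SE 0.504, FDR 0.0350). Snap25, a SNARE protein of synaptic vesicle release, stood at 118, 123 and 457 CPM and then at 657, 703 and 659 CPM (log2 1.53, SE 0.402, FDR 0.0337). In both P1 replicate 3 stood far above the other P1 libraries but below every P14 library, the latter being required by the naming rule. Mgp, Tmem59l, Ube2ql1, the synaptotagmin gene Syt3, Speg, the neuronal kinase gene Aatk and the adrenergic receptor gene Adra2c were also among the 10 largest rises of matched models, with log2 changes of 1.52 (Adra2c) to 2.05 (Mgp). None of the 10 largest rises kept its call in every fit that left out 1 library of the pair of groups.

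Igf2bp3 (uc009bwi.2), an RNA-binding protein of embryonic tissue, stood at 42.6, 32.9 and 16.7 CPM at P1 and at 3.49, 3.70 and 3.03 CPM at P14 (log2 -3.17, SE 0.329, FDR 0.000194). Its level was 47.8 to 57.6 CPM at E15.5 and 11.7 to 19.5 CPM at P7, so its mean was lower at each later age. Of the steps between neighbouring ages, the last passed the test (log2 -2.23, FDR 0.0055). Spp1 stood at 11.6 to 13.3 CPM and then at 1.52 to 2.17 CPM (log2 -2.77, SE 0.346, FDR 0.000814). Cxcr4, the chemokine receptor that holds precursors at the cerebellar surface, stood at 164, 160 and 87.4 CPM and then at 37.5, 36.2 and 39.5 CPM (log2 -1.86, SE 0.251, FDR 0.00117). No P14 library reached the P1 range in these 3, as the naming rule required. Slc30a3, Carnmt1, Sox1ot, Adcyap1, Fam84a and Ngfr also fell, with log2 changes of -2.32 (Slc30a3) to -1.79 (Ngfr). The unmatched model uc007faa.2 had the largest fall, from 10.1, 7.05 and 5.40 CPM to 0.499 to 0.626 CPM (log2 -3.69, SE 0.435, FDR 0.000478). Of 23 models named here, 10 kept their call in every fit that left out 1 of the 6 libraries.

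The number of calls in P14 against P1 turned on single libraries. With P1 replicate 3 left out, 399 models were called higher and 349 lower, and with P1 replicate 1 left out, 0 and 49. Without P1 replicate 2 there were 1 and 62, and without P14 replicates 1, 2 and 3 there were 8 and 55, 2 and 45, and 1 and 59. Libraries of the groups not compared also moved it, from 55 higher and 188 lower without P7 replicate 1, and 75 and 178 without E15.5 replicate 1, to 372 and 398 without MB replicate 1. Inside the 9 libraries of 1 library set, a fit chosen after seeing the data, 619 models were called higher and 705 lower.

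The last comparison set the tumour cells against P7 precursors, which the design text sets beside the tumour. In MB against P7, 604 UCSC-named models were called higher and 990 lower, 12.4% and 20.3% of those tested, where 13.2% and 20.3% of all models were. At a fitted change of at least 2-fold, 334 were higher and 853 lower (6.83% and 17.5%), where 7.08% and 17.2% of all models were. Hk2, Cavin2 and Olig3 were among the largest rises of matched models, and Slc32a1, Slc17a7 and Msx2 among the largest falls.

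Hk2, a hexokinase that commits glucose to use in the cell, stood at 62.3, 55.1 and 17.0 CPM at P7 and at 553, 837 and 912 CPM in MB (log2 4.10, SE 0.421, FDR 3.55e-06). Cavin2, a protein of membrane caveolae, stood at 20.0, 24.0 and 20.2 CPM and then at 278, 350 and 319 CPM (log2 3.88, SE 0.214, FDR 1.36e-08). Olig3 stood at 5.77, 8.10 and 3.87 CPM and then at 85.5, 43.1 and 132 CPM (log2 3.87, SE 0.386, FDR 2.70e-06). By the naming rule all MB libraries lay above all P7 libraries in these 3. For Olig3 they also lay above all E15.5 libraries. Sox18, a transcription factor best known from blood vessels, stood at 8.38, 7.46 and 14.4 CPM and then at 57.2, 314 and 338 CPM (log2 4.56, SE 0.580, FDR 2.61e-05). Summed endothelial markers stood at 17.6 to 31.5 CPM in MB and at 285 to 348 CPM at P7, and the part of such cells in the Sox18 change was not tested. The receptor Epha2, the choline transporter gene Slc5a7, Atoh1, Hsd11b2, Frmd4b and the leukocyte integrin gene Itgb2 completed the 10 largest rises of matched models, with log2 changes of 2.59 (Frmd4b) to 3.62 (Epha2). For Itgb2 the summed microglial markers were at 361, 149 and 123 CPM in MB replicates 1 to 3 beside 30.1, 9.93 and 8.33 CPM of the model itself, and at 40.1 to 128 CPM at P7, and their part was not tested. The unmatched model uc008oww.2 had the largest rise, from 3.03, 2.07 and 1.88 CPM to 48.0, 73.1 and 55.2 CPM (log2 4.65, SE 0.337, FDR 1.42e-07).

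Slc32a1, the vesicular GABA transporter, stood at 40.3, 24.6 and 40.6 CPM at P7 and at 0.154, 0.190 and 0.156 CPM in MB (log2 -7.66, SE 0.365, FDR 5.39e-09). It is itself a marker of GABAergic interneurons, whose summed markers were 227 to 359 CPM at P7 and 1.64 to 3.09 CPM in MB. Slc17a7, of glutamatergic terminals, stood at 81.2, 68.4 and 77.9 CPM and then at 1.497, 0.951 and 0.623 CPM (log2 -6.21, SE 0.638, FDR 3.49e-06). Both kinds of vesicular transporter were thus far lower in every MB library. Msx2, a homeobox factor downstream of bone morphogenetic proteins, had 1858 reads at P7 and 3 in MB, a ratio of read shares of 588 (95% counting interval 201 to 2855). Bmp4, one of those proteins, stood at 9.03, 6.16 and 9.53 CPM and then at 0.154, 0.380 and 0.156 CPM (log2 -5.06, SE 0.499, FDR 2.46e-06). The adrenergic receptor gene Adra2c, Grip2, Nap1l3, the laminin gene Lamc3 and the netrin receptor gene Unc5b also fell, with log2 changes of -8.17 (Adra2c) to -5.13 (Unc5b). The summed endothelial and oligodendrocyte markers given above were also lower in every MB library than in every P7 library. The part of such cells in these falls was not tested. All 23 models named from this comparison by size of change kept their call when any 1 of the 6 libraries was left out, and inside the 6 libraries of 1 library set all 23 passed the threshold in the same direction. MB had 1 library there, so the spread came from the other groups and the lone library was assumed to vary like them.

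Eif2s3y, a gene of the Y chromosome, had the largest fall in this comparison, with 1770, 1121 and 1279 reads at P7 and 0, 0 and 2 reads in MB, a ratio of read shares of 1980 (95% counting interval 548 to 16355). Its level was 28.1 to 77.9 CPM in every precursor library. The labels give no sex, so in these libraries the sex of the mice and the tumour cannot be told apart.

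Few genes from lists of pathways of this tissue were reached through matched UCSC-named models. Whether the others had Ensembl models or unmatched UCSC-named ones was not counted. The cell cycle list had 4 matched models of 31 genes, the Sonic hedgehog list 3 of 15, the granule neuron maturation list 3 of 30 and the Polycomb list 2 of 35. In P7 against P1 the FDR of these 12 ranged from 0.0935 (Gabrb2) to 0.920 (Aurkb).

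Of the cell cycle models, 2 of 4 were higher at P1 than at E15.5, 3 were lower at P14 than at P7 and 3 were higher in MB than at P7. Of all models tested, 24.5%, 4.26% and 13.2% were called in these directions. The 4 models do not stand for the whole list. The median log2 change in MB was 1.12, against 0.02 over all models. Mcm2, a subunit of the replicative helicase, stood at 196, 203 and 193 CPM at P7, at 95.9, 77.2 and 102 CPM at P14 and at 523, 600 and 474 CPM in MB. It fell by 1.10 on the log2 scale between P7 and P14 (SE 0.207, FDR 0.00986) and rose by 1.43 on the same scale in MB (SE 0.209, FDR 8.95e-05). The fall ended without P14 replicate 2 and without P7 replicate 2, and the rise in MB held in every alternative run. All 3 falls of the list between P7 and P14 ended without P14 replicate 2, and both of its rises between E15.5 and P1, of Ccnd1 and Ccna2, ended without P1 replicate 1 or 2 or any E15.5 library. Ccnd1, the cyclin D1 that Sonic hedgehog signalling induces in these cells, stood at 482, 328 and 198 CPM at P1, at 105, 96.5 and 109 CPM at P14 and at 434, 1190 and 1122 CPM in MB. It was called lower at P14 than at P1 (log2 -1.70, SE 0.350, FDR 0.0133) and higher in MB than at P7 (log2 1.99, SE 0.353, FDR 0.000478), and both calls ended in 1 or more alternative fits. Aurkb, a mitotic kinase, was higher in MB (log2 0.82, FDR 0.00701). It was not called inside the 6 libraries of 1 library set, where MB had 1 library (log2 0.47). Ccna2, cyclin A2, was not called in MB against P7 over all 15 libraries (log2 0.16, FDR 0.611). Inside the 6 libraries its fitted log2 change was 0.42.

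Of the Sonic hedgehog models, Atoh1 (uc009ceb.2), the factor that defines granule precursors, stood at 120 to 135 CPM at E15.5, at 63.6, 51.9 and 23.9 CPM at P1, at 23.0, 38.1 and 28.5 CPM at P7, at 10.6 to 12.8 CPM at P14 and at 312, 274 and 229 CPM in MB. It fell by 1.44 on the log2 scale between E15.5 and P1 (SE 0.282, FDR 0.000874) and by 2.00 between P1 and P14 (SE 0.289, FDR 0.00165), and rose by 3.18 in MB against P7 (SE 0.300, FDR 1.53e-06). All MB libraries lay above every precursor library, and these 3 calls held when any 1 library of the groups compared was left out. Gas1, a hedgehog co-receptor, stood at 54.4, 38.9 and 53.1 CPM at P7 and at 37.5, 149 and 131 CPM in MB. The groups overlapped, and its call (log2 1.12, SE 0.362, FDR 0.0265) turned direction inside the 6 libraries of 1 library set, where the fitted change was -0.36 with MB replicate 1 alone. Smo stood at 113 to 177 CPM at P7 and at 157 to 233 CPM in MB, and that difference was the nearest of its 5 to the threshold (log2 0.56, FDR 0.0523).

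**Figure D5:**
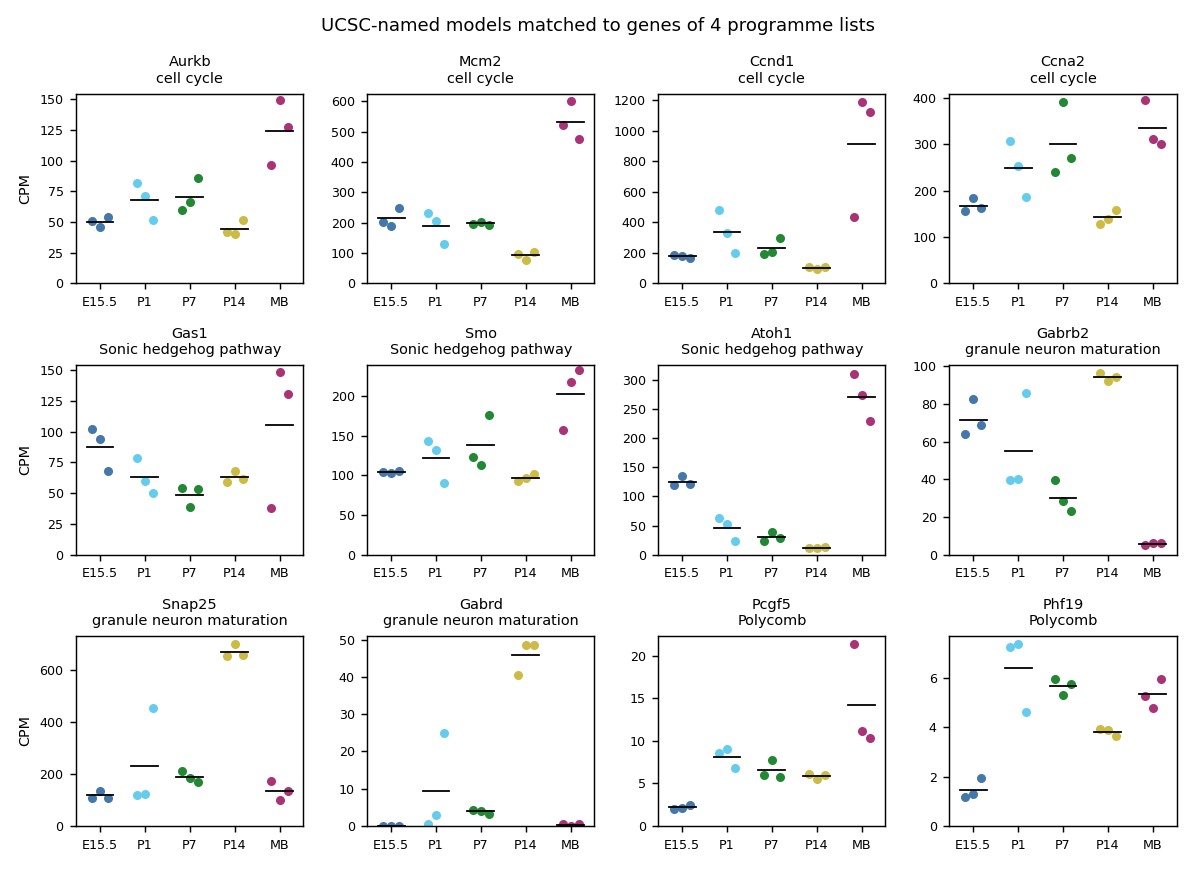
CPM of the 12 matched models of the 4 pathway lists in each library (points, replicates 1 to 3 from left to right) with group means (lines), on linear axes that start at 0. Atoh1 falls from 120 to 135 CPM at E15.5 to 10.6 to 12.8 CPM at P14 and stands at 229 to 312 CPM in MB.

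All 3 granule neuron maturation models were higher at P14 than at P7, as were 5.19% of all models tested. Their median log2 change was 1.83 against -0.01 over all models. In MB 2 of 3 were lower than at P7, as were 20.3% of all models tested. The 3 models do not stand for the whole list. Gabrb2, a GABA-A receptor subunit, stood at 39.4, 28.5 and 23.0 CPM at P7, at 92.2 to 96.3 CPM at P14 and at 5.03 to 6.07 CPM in MB. It rose by 1.64 on the log2 scale between P7 and P14 (SE 0.276, FDR 0.00901) and fell by 2.42 in MB (SE 0.288, FDR 1.43e-05). Its level at E15.5, 63.9 to 82.5 CPM, lay above that of P7 in every library. Gabrd and Snap25 are given above, and Snap25 was not called in MB against P7 (log2 -0.49, FDR 0.379). All 3 P14 against P7 calls ended in 1 or more fits that left out a library.

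Both Polycomb models rose between E15.5 and P1, as did 24.5% of all models tested. Phf19, a subunit that links the Ezh2 complex to chromatin, stood at 1.19 to 1.93 CPM at E15.5 and at 7.25, 7.39 and 4.63 CPM at P1 (log2 2.099, SE 0.270, FDR 2.81e-05). Pcgf5, a subunit of a Polycomb complex that modifies histone H2A, stood at 1.95 to 2.44 CPM and then at 8.59, 9.05 and 6.84 CPM (log2 1.90, SE 0.291, FDR 0.000123). The groups did not overlap in either. Pcgf5 was also higher in MB, at 21.4, 11.1 and 10.3 CPM against 5.78 to 7.81 CPM at P7 (log2 1.13, SE 0.276, FDR 0.00520), and Phf19 was not called there (log2 -0.09, FDR 0.821). Neither was called in the comparisons among P1, P7 and P14 over all 15 libraries. Inside the 9 libraries of 1 library set, Phf19 passed the threshold in P14 against P1 (log2 -0.76) and Pcgf5 did not (log2 -0.49).

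The start regions of matched models called in opposite directions differed in their CpG content, given here as a description with no test. In P1 against E15.5, 49.1% of the 560 start regions of models called higher were rich in CpG, against 71.0% of the 576 of models called lower. In P14 against P7 the shares were 38.6% of 127 and 71.8% of 117. In P14 against P1, inside 1 library set, they were 54.0% of 87 and 65.2% of 112. In P7 against P1, with 36 and 35 start regions, the order was the other way, at 75% and 48.6%. In MB against P7 it was also the other way, with 65.0% of 326 start regions of models called higher and 48.3% of 451 of those called lower. Across all 2261 start regions of tested matched models the share was 63.4%. CANNTG was in 63.8% of the start regions of models higher at P14 than at P7 and in 53.9% of those lower, but in 58.6% and 59.8% of those higher and lower at P14 than at P1. The shares were 41.7% and 68.6% in P7 against P1, 61.8% and 56.9% in P1 against E15.5 and 54.0% and 63.9% in MB against P7.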

How the data were processed

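RNA-seq libraries of granule neuron precursors (E15.5, P1, P7, P14) and of MB were compared. The authors deposited raw read counts per TSS model, per gene and per transcript, with no normalization. The submitters' processing notes name Trimmomatic, TopHat, StringTie, HTSeq and build mm9, whose roles and versions are not given in the sources used here. Of a library's records, 0.839% to 1.26% were ambiguous between models, 10.9% to 28.5% lay in no model and 22.9% to 44.6% aligned to several places. Such summary lines were kept out of library sizes. Without a strand setting, overlapping models cannot be told apart.

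All 24735 models entered 1 fit in edgeR 4.0.16 (R 4.3.3): filterByExpr (minimum count 10, minimum total 15), TMM scaling, 1 mean per group over all 15 libraries, 10 residual degrees of freedom, and quasi-likelihood F-tests with Benjamini-Hochberg adjustment over all 16378 models tested. The test was checked on simulated data. CPM used TMM-scaled library sizes. Ratios with intervals used summed reads and the exact binomial method, and they and the floor of 3 reads cover counting error only.

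Named were the 10 models with the highest mean CPM, the list members, and per comparison the called models with a mean of at least 5 CPM, no overlap between groups and the largest change (4 in each direction, or 2 in P7 against P1 and P14 against P7). Since many of these were unmatched, the matched models with the largest change were added after their values were seen, and not all unmatched ones are printed. One named model is not reported here. The members and lists were chosen with earlier results of these data known. Promoter letters came from RefSeq. The test of a model's share of its locus and the naming by position needed coordinates and were not run. Alternatives were DESeq2 1.42.0, RLE scaling, no filter, the 2 groups alone, a replicate block, libraries left out and, added later, fits inside a library set.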

Additional observations from a re-analysis of the deposited data

How the results depend on the processing

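Calls were counted again under each alternative (higher, then lower). In P7 against P1, 50 and 73 became 156 and 203 with DESeq2, and the lower calls became 32 with the groups compared alone. In P14 against P7, 242 and 164 became 421 and 278 with DESeq2 and 663 and 432 with the groups alone. In P14 against P1, 130 higher became 331 with DESeq2, and 130 and 232 became 512 and 640 with the groups alone and 619 and 705 inside 9 libraries of 1 library set. In MB against P7, 604 higher became 368 with the groups alone. Apart from the replicate block and single libraries, given below, the numbers of calls under the other settings stayed within 1.5 times. Like numbers need not be the same models. For P1 against E15.5 and MB against P7, the fits inside a library set left 1 library of E15.5 or of MB. They cannot show whether those calls hold across library sets. The cause was not tested.

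Leaving out each library in turn gave 1038 to 1370 and 675 to 1148 in P1 against E15.5, 0 to 187 and 1 to 201 in P7 against P1, 0 to 451 and 1 to 361 in P14 against P7, 0 to 399 and 45 to 398 in P14 against P1, 440 to 786 and 858 to 1111 in MB against P7, and 2988 to 3651 over the 5 groups.

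The replicate numbers did not pair the libraries: deviations of same-numbered libraries correlated at -0.28 to 0.33 across models, and 5 of 30 pairs exceeded 0.1. With a replicate block, P7 against P1 had 23 and 37 calls, and 90 of 98 named results kept their call.

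No named result turned direction among the 98 chosen by size of change. DESeq2 kept 97 of 97 calls, and 58 of 98 held in every fit without 1 library of the groups compared. Of 7613 models, 4888 passed the low-count filter, so nothing is said of changes in the rest. The transcript table as an alternative count was not run, since it lists none of these models.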
